A study of Homo sapiens with 8 samples.

Results

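The genes described here are 36 named genes of glucose uptake, glycolysis, the pentose phosphate pathway and the hypoxia response, picked by symbol from the 19447 genes of a count table of K562 cells. All 36 were in the table and all 36 passed the filter on low counts. K562 is an established human line from a chronic myeloid leukaemia in blast crisis that carries BCR-ABL1 and has an erythroid character. The 8 libraries were 4 controls without Lip-1 (controls 1 to 4, labelled Day 0), 3 libraries from cells given 10 µM Lip-1 for 24 h (replicates 2, 3 and 4, labelled Day 1) and 1 library from cells given 20 µM Lip-1 for 24 h (replicate 1, Day 1). All cells have the genotype label WT and were grown in the same serum-containing medium, and no vehicle is named for the controls. The labels use the abbreviation Lip-1 without expanding it; liproxstatin-1, a lipophilic radical trap that blocks ferroptosis, commonly goes by that name. All controls are Day 0 and all treated libraries Day 1, so treatment and day cannot be told apart. The labels do not say that replicates came from separate cultures, so p-values measure the spread between these libraries.

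Glycolysis turns glucose into pyruvate in the cytosol and yields ATP and NADH, and lactate dehydrogenase turns pyruvate into lactate so that NADH is oxidised again. The pentose phosphate pathway branches off at glucose 6-phosphate and makes NADPH and ribose 5-phosphate. When oxygen is low, prolyl hydroxylases of the EGLN family no longer mark HIF alpha subunits for destruction, and the HIF dimer then drives many glycolytic genes together with VEGFA, ADM and others through hypoxia response elements in their DNA.

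Library totals lay between 71151415 and 141307169 counts, and levels are given as CPM, the count scaled to a common library total. The single 20 µM library stood apart from the others, at -149 on a first principal component that held 45.0% of the variance, where the other 7 libraries lay between -33.1 and 80.6. All 10 erythroid and K562 marker genes were detected in every library, with summed levels of 4220 to 7473 CPM in the controls, 3427 to 4472 CPM at 10 µM and 2757 CPM at 20 µM. Of these 10 markers 4 fell (KLF1, HBG1, HBG2 and HBZ) and 0 rose at 10 µM against control in edgeR. Of all genes tested 9.79% fell and 9.34% rose. GATA1 did not pass (log2 fold change -0.16), and TAL1 (0.63) and EPOR (0.22) leaned upward without passing. The part of these markers in the results below was not tested. The libraries also stood apart on CDKN2A and CDKN2B, a pair of neighbouring genes that K562 is known to have lost. CDKN2A had 0.113 CPM in control 1 and 1.11 to 1.59 CPM in controls 2 to 4, 1.60 to 3.97 CPM at 10 µM and 0.0724 CPM at 20 µM. CDKN2B had 0.0283 CPM in control 1, 0.675 to 0.800 CPM in controls 2 to 4, 0.747 to 1.63 CPM at 10 µM and 0 counts at 20 µM, where 3 counts would be 0.0241 CPM. Control 1 and the 20 µM library, which share replicate number 1, were thus lowest on both genes, and the part of this in the results below was not tested. For 10 µM against control, the counts of members called without control 1 are given beside the main ones. Of the markers of other cell types, LYZ had 122 and 124 CPM in controls 1 and 4, 17.5 to 18.3 CPM in controls 2 and 3, 19.3, 26.2 and 106 CPM at 10 µM and 18.8 CPM at 20 µM. EPCAM had 28.0 to 54.1 CPM in the controls, 31.7 to 41.9 CPM at 10 µM and 17.6 CPM at 20 µM, and CD3D 12.2 to 15.7, 12.4 to 21.4 and 5.12 CPM at the same doses. ELANE was at 0 in all 8 libraries. In bulk RNA, fewer cells of a kind and less RNA per cell cannot be told apart.

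Promoter sequence is shown for 5 members that the results turn on, 3 that fell at 10 µM (LDHA, PGK1 and GAPDH) and 2 that rose (ALDOC and BHLHE40). Each run is the 250 bases before the RefSeq start of the gene on GRCh38.p14, 5′ to 3′ on the gene's strand, with every match on either strand to a hypoxia response element core, ACGTG or the variant GCGTG, in capitals.
LDHA (chr11:18394313-18394562, plus strand): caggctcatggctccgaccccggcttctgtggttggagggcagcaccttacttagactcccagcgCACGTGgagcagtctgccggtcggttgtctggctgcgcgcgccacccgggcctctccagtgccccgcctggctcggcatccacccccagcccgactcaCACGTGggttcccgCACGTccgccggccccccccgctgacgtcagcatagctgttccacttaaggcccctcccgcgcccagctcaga
PGK1 (chrX:78103998-78104247, plus strand): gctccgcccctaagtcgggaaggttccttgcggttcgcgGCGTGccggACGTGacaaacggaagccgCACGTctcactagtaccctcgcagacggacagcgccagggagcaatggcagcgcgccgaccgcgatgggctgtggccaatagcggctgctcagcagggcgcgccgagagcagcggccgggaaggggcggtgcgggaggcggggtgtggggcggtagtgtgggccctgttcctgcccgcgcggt
GAPDH (chr12:6535014-6535263, plus strand): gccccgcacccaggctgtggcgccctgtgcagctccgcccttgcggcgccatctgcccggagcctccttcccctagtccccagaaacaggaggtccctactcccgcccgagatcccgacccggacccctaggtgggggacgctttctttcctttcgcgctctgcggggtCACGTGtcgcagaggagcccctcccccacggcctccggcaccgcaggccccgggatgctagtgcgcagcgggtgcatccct
ALDOC (chr17:28576896-28577145, minus strand): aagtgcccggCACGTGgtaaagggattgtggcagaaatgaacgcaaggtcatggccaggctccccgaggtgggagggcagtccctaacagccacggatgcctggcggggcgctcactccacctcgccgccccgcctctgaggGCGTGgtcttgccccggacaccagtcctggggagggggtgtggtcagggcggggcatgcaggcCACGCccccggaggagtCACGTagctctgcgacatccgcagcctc
BHLHE40 (chr3:4979187-4979436, plus strand): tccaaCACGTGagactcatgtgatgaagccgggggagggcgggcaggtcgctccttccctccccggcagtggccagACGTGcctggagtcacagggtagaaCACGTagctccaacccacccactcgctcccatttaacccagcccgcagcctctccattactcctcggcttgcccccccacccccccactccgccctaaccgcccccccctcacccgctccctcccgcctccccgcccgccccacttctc
LDHA held 5 such matches, ALDOC 5, BHLHE40 4, PGK1 3 and GAPDH 2. The E-box CACGTG counts on both strands, so each copy gives 2 matches. LDHA held 2 copies, ALDOC, BHLHE40 and GAPDH 1 each and PGK1 0. Both matches in GAPDH are thus 1 site. The GAPDH window lies inside the annotated gene (6533927 to 6538374), downstream of its first annotated base. The windows of PGK1, ALDOC and BHLHE40 also lie inside their annotated genes, and that of LDHA does in part. Which start these cells use was not tested. Of the 33 members with a promoter in the RefSeq table, 12 (36.4%) held ACGTG in this window, against 18.7% of all 27305 promoters searched. GCGTG was found in 10 of the 33 (30.3%), against 31.9% of all promoters, and CACGTG in 5 of the 33 (15.2%), against 6.49%. The motifs occurred in members that fell and in members that rose, and a match of letters is not a measured binding site. All 5 members shown held a match. Among the other members that fell at 10 µM, HK2, GPI, PFKFB3, ENO1 and RPIA held a match. SLC2A1, TPI1, PGAM1, PGAM4, TKT and EGLN3 held none. ENO2, which rose, also held a match. SLC2A3, SLC16A1 and VEGFA had no entry.

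Per length of annotated exon, the strongest member was GAPDH, with 671 ± 77.8 CPM per kilobase at 10 µM (SD, n = 3) and 1029 ± 79.5 in the controls (n = 4). ENO1 followed with 478 ± 33.5 at 10 µM and 589 ± 29.9 in the controls. ALDOA and LDHB came next in the controls, at 391 ± 24.2 and 382 ± 34.7 CPM per kilobase, and did not differ from each other beyond their spread; the same holds for LDHA (264 ± 64.4) and TPI1 (255 ± 17.0) after them. At the low end of the controls stood SLC16A3 (0.155 ± 0.108), ADM (0.224 ± 0.221) and TIGAR (0.365 ± 0.0320).

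The first comparison asked how the genes at 10 µM differed from control. Of the 22 members of upper and lower glycolysis 10 fell at 10 µM, among them GPI, TPI1, GAPDH and PGK1, while the isozymes ENO2 and ALDOC, the glucose transporter SLC2A3 and the repressor BHLHE40 rose. By edgeR's quasi-likelihood test with Benjamini-Hochberg adjustment over 14857 genes, 18 of 36 members passed the threshold of 0.05, 4 higher and 14 lower. Without control 1 the counts were also 4 and 14, where 1351 and 1437 of 14767 genes passed. Of those 14 lower members 13 were shared with the main fit, and TKT was lost. In the main fit 19.1% of all genes tested passed, 9.34% higher and 9.79% lower. The members' median log2 fold change was -0.37, beside 0.05 over all genes tested. All 3 libraries at 10 µM lay below all 4 controls for 15 members (10.7% of all genes did) and above them for 7 (21.8% of all genes). The count rests in part on 10 µM replicate 3, without which 2 members rose and 7 fell, where 643 and 721 of 14820 genes did. With all 4 treated libraries as 1 group against control, 2 members rose and 9 fell, where 14.2% of all genes passed, 7.47% higher and 6.69% lower. Among the digit-named libraries alone (controls 2 and 3, 10 µM replicates 2 and 3, by the submitters' library names) 6 members rose and 17 fell, including all 18 above, where 1652 and 1485 of 12973 genes did; the letter-named libraries hold 1 library at 10 µM, too few for a value of their own.

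**Figure D1:**
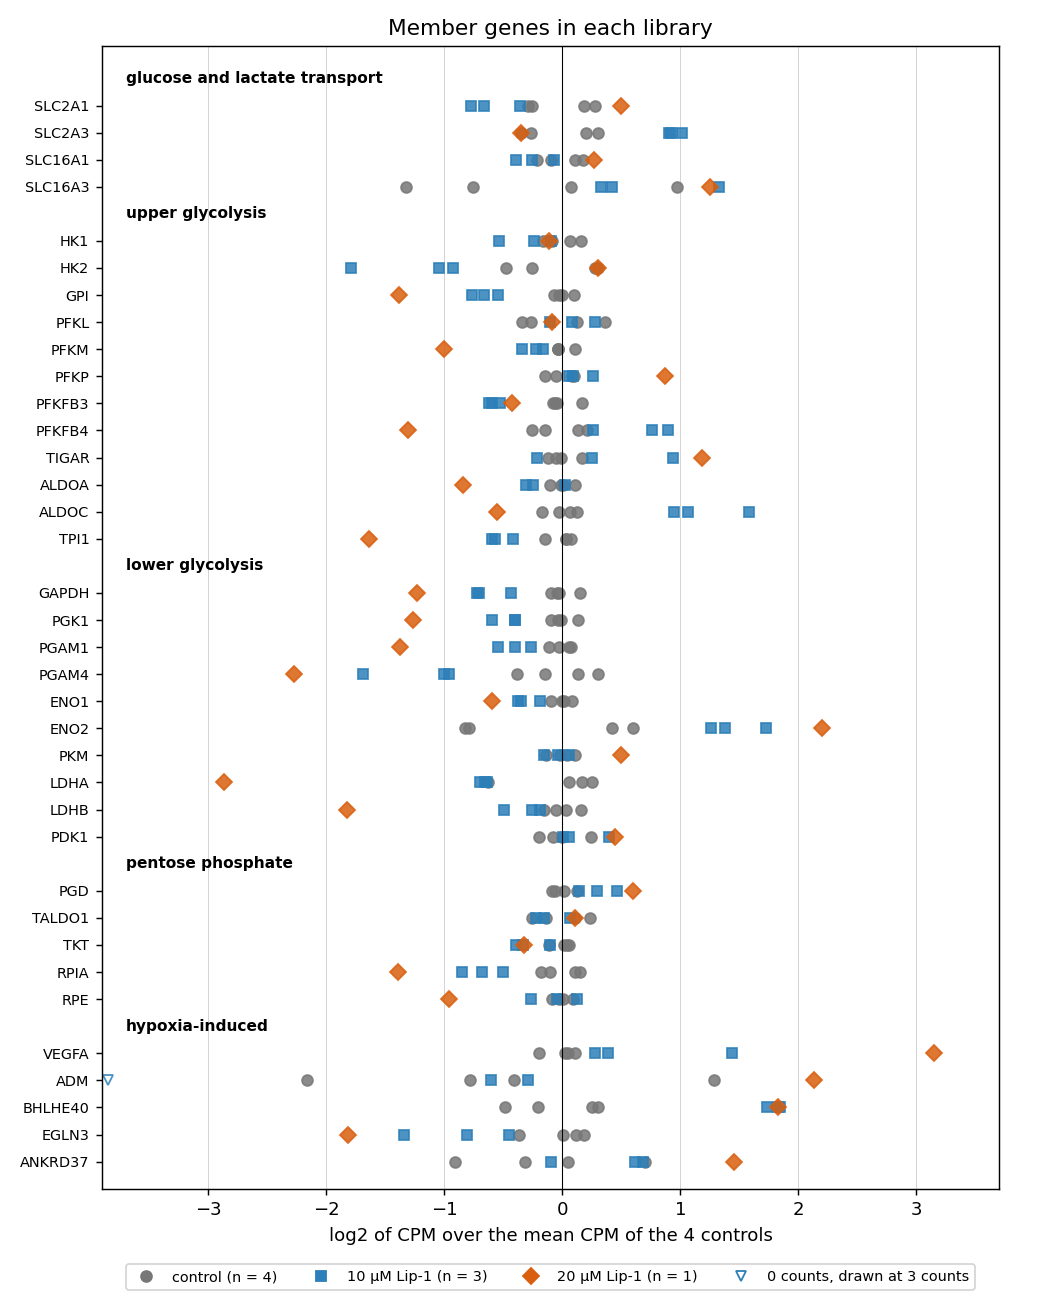
Level of each of the 36 members in each of the 8 libraries, as the log2 of CPM over the mean of the 4 controls (x axis), by role (y axis); grey circles are controls, blue squares 10 µM, orange diamonds the single 20 µM library, and the open triangle marks ADM at 0 counts, drawn at 3 counts. GPI, TPI1, GAPDH, PGK1 and PGAM1 step down from controls to 10 µM to 20 µM, while BHLHE40 is high at 10 µM and 20 µM alike.

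The second comparison set the 20 µM library against 10 µM. It has 1 library on one side, which is assumed to vary like the others, so it has no replicate check. Here 5 members rose and 13 fell, where 11.7% of all genes rose and 14.6% fell (26.3% in all). Control 1 enters this comparison only through the shared estimate of the spread. Leaving it out therefore cannot tell the dose from replicate number 1. The members' median was -0.12, beside 0.01 over all genes. Since the 10 µM libraries enter both comparisons, values of the 2 comparisons are set side by side below and not counted together. Against the controls, the 20 µM library lay above all 4 for 14 members (46.5% of all genes), below all 4 for 19 (30.6% of all genes) and within their range for 3, HK1, PFKL and TALDO1.

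**Figure D2:**
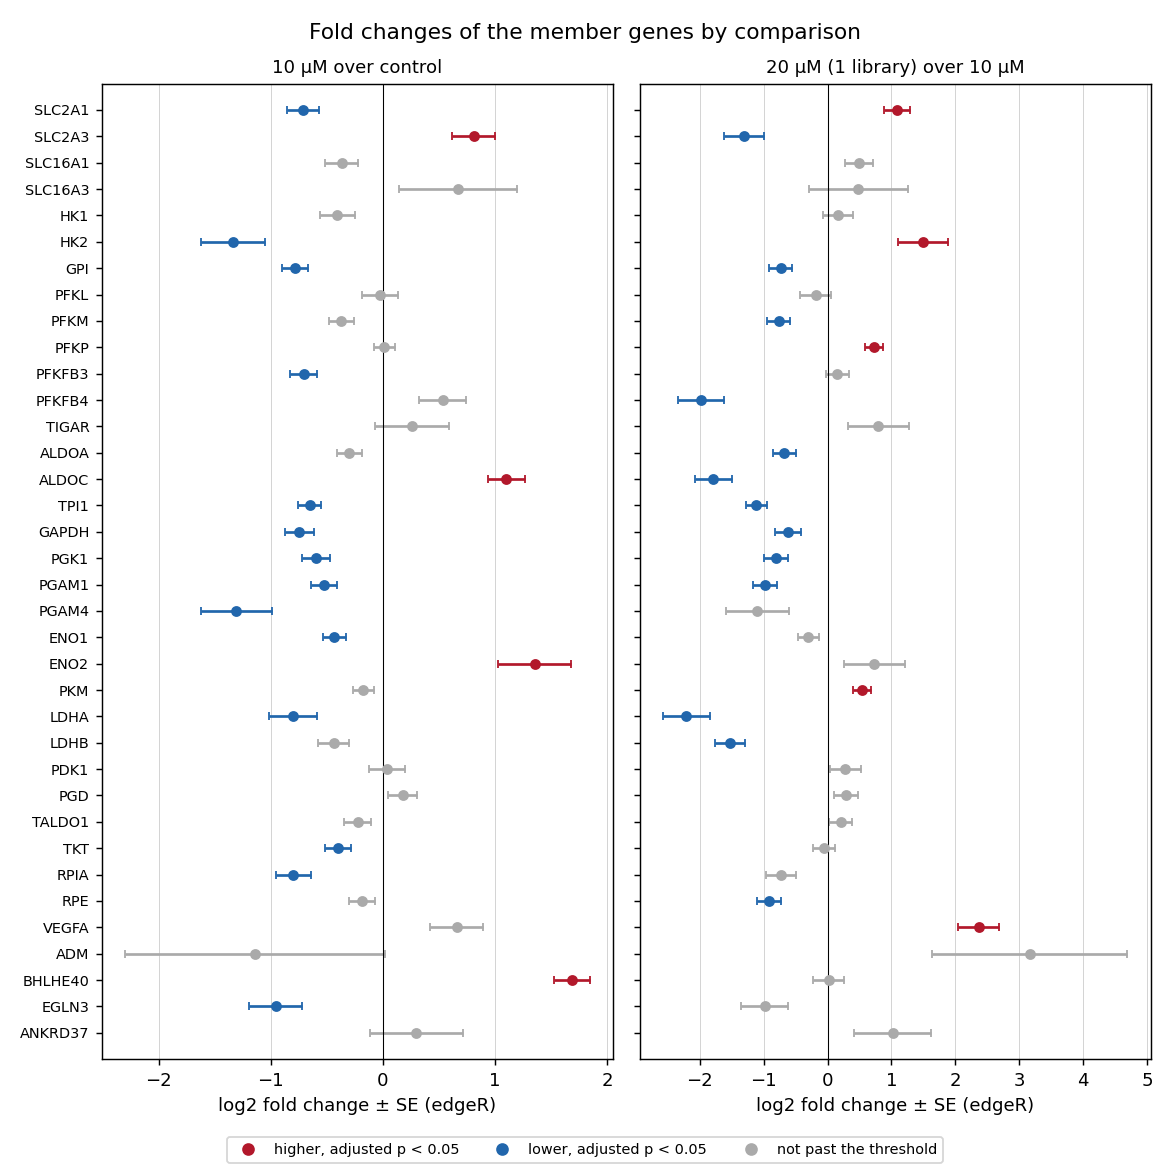
Log2 fold change with its SE from edgeR for each member (y axis), left for 10 µM over control and right for the single 20 µM library over 10 µM; red points are higher and blue points lower at an adjusted p under 0.05, grey points did not pass. The left panel holds 4 red and 14 blue points and the right panel 5 red and 13 blue points.

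Glucose enters through the GLUT transporters and lactate leaves through the monocarboxylate transporters. SLC2A1 (GLUT1, the widespread transporter, chromosome 1, 42925375 to 42959176, minus strand, GENCODE 29 on GRCh38) stood at 236, 159, 163 and 221 CPM in controls 1 to 4, at 123, 114 and 152 CPM at 10 µM and at 275 CPM at 20 µM. The 10 µM libraries were all below the controls and the 20 µM library above them. SLC2A1 fell at 10 µM (log2 fold change -0.71, SE 0.15, edgeR adjusted p = 0.0118) and was higher at 20 µM than at 10 µM (1.08, SE 0.21, adjusted p = 0.00565). SLC2A3 (GLUT3, the high-affinity neuronal transporter, chromosome 12, 7919230 to 7936275, minus strand) ran the other way. Its levels were 171, 269.7, 251 and 181 CPM in controls 1 to 4, 414, 440.2 and 409 CPM at 10 µM and 171 CPM at 20 µM, where it was level with the lowest control. It rose at 10 µM (0.81, SE 0.19, adjusted p = 0.0191) and was lower at 20 µM than at 10 µM (-1.30, SE 0.31, adjusted p = 0.0151). Both 10 µM calls were lost with all treated libraries as 1 group and without 10 µM replicate 3 (edgeR adjusted p = 0.0566 for SLC2A1 and 0.0668 for SLC2A3; 3.65e-05 to 0.417 and 0.000409 to 0.207 over all alternatives). SLC16A1 (MCT1), which carries lactate both ways, did not pass, at 245 ± 28.05 CPM at 10 µM (SD, n = 3) and 289 ± 35.4 CPM in the controls (n = 4), with 347 CPM at 20 µM. SLC16A3 (MCT4), the hypoxia-inducible lactate exporter, was low throughout, at 2.38 ± 0.986 CPM at 10 µM and 1.40 ± 0.970 CPM in the controls. It shares 5.36% of its exon length with the antisense gene CSNK1D. CSNK1D had a mean of 18484 counts, against 44 to 414 counts for SLC16A3. The part of CSNK1D reads in the SLC16A3 counts was not tested.

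At the entry to glycolysis, hexokinase phosphorylates glucose. HK2, the inducible hexokinase (chromosome 2, 74833981 to 74893359, plus strand), had 94.1, 161, 159 and 109 CPM in controls 1 to 4, 69.0, 63.3 and 37.8 CPM at 10 µM and 161 CPM at 20 µM. The 10 µM libraries lay below every control, and the 20 µM library was level with the highest controls. HK2 fell at 10 µM (log2 fold change -1.34, SE 0.29, edgeR adjusted p = 0.0137) and was higher at 20 µM than at 10 µM (1.50, SE 0.39, adjusted p = 0.0209). HK1, the constitutive form, overlapped between groups, at 536 ± 81.2 CPM at 10 µM and 649.9 ± 66.5 CPM in the controls (adjusted p = 0.103). GPI, which makes fructose 6-phosphate (chromosome 19, 34359480 to 34402413), stood at 472, 482, 515 and 460.1 CPM in the controls, 331, 305 and 284 CPM at 10 µM and 185 CPM at 20 µM. It fell at both steps (-0.78, SE 0.12, adjusted p = 0.00347 at 10 µM against control, and -0.73, SE 0.18, adjusted p = 0.0164 at 20 µM against 10 µM).

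Phosphofructokinase commits the sugar to glycolysis, and its 3 subunit genes did not move together. None of them passed at 10 µM in edgeR, with PFKM at -0.37 (adjusted p = 0.0518), PFKL at -0.03 and PFKP at 0.02. At 20 µM against 10 µM, PFKP, the platelet-type subunit, was higher (0.73, SE 0.14, adjusted p = 0.00587), PFKM, the muscle-type subunit, was lower (-0.76, SE 0.18, adjusted p = 0.0137), and PFKL, the liver-type subunit, stood at -0.18 (adjusted p = 0.620). PFKM shares 8.58% of its exon length with the antisense gene SENP1, and the sources used here do not say whether counting used strand. The regulators of phosphofructokinase set the level of fructose 2,6-bisphosphate, its activator. PFKFB3, a kinase that makes it (chromosome 10, 6144934 to 6254644), fell to 21.7, 22.8 and 21.3 CPM at 10 µM, against 31.8, 36.9, 31.4 and 31.0 CPM in the controls (-0.71, SE 0.12, edgeR adjusted p = 0.00628), and had 24.4 CPM at 20 µM. PFKFB4 showed another order, with 15.5, 19.9, 18.9 and 14.4 CPM in the controls, 31.9, 29.1 and 20.5 CPM at 10 µM and 6.93 CPM at 20 µM. All 3 libraries at 10 µM were above the controls, without passing the test (0.54, adjusted p = 0.108), and the 20 µM library, below every control, was lower than 10 µM (-1.98, SE 0.36, adjusted p = 0.00487). TIGAR, a bisphosphatase that lowers fructose 2,6-bisphosphate, was scarce at 1.94 ± 0.790 CPM at 10 µM and 1.47 ± 0.128 CPM in the controls.

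The aldolases split fructose 1,6-bisphosphate. ALDOC, the brain-type aldolase (chromosome 17, 28573115 to 28577264, minus strand), had 31.7, 25.9, 30.4 and 28.5 CPM in the controls, 87.3, 60.9 and 56.2 CPM at 10 µM and 19.8 CPM at 20 µM. It was above every control at 10 µM and below every control at 20 µM. ALDOC rose at 10 µM (1.10, SE 0.17, edgeR adjusted p = 0.00384) and was lower at 20 µM than at 10 µM (-1.79, SE 0.28, adjusted p = 0.00266). ALDOA, the main aldolase, did not pass at 10 µM (-0.30, adjusted p = 0.0970) and was lower at 20 µM than at 10 µM (-0.67, SE 0.18, adjusted p = 0.0216), with 854 CPM there against 1557, 1234 and 1286 CPM at 10 µM. TPI1, which interconverts the triose phosphates (chromosome 12, 6867119 to 6870948), had 725, 621, 703 and 702 CPM in the controls, 514, 464 and 455 CPM at 10 µM and 221 CPM at 20 µM. The 3 doses did not overlap, and TPI1 fell at both steps (-0.65, SE 0.10, adjusted p = 0.00452, and -1.11, SE 0.17, adjusted p = 0.00201).

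**Figure D3:**
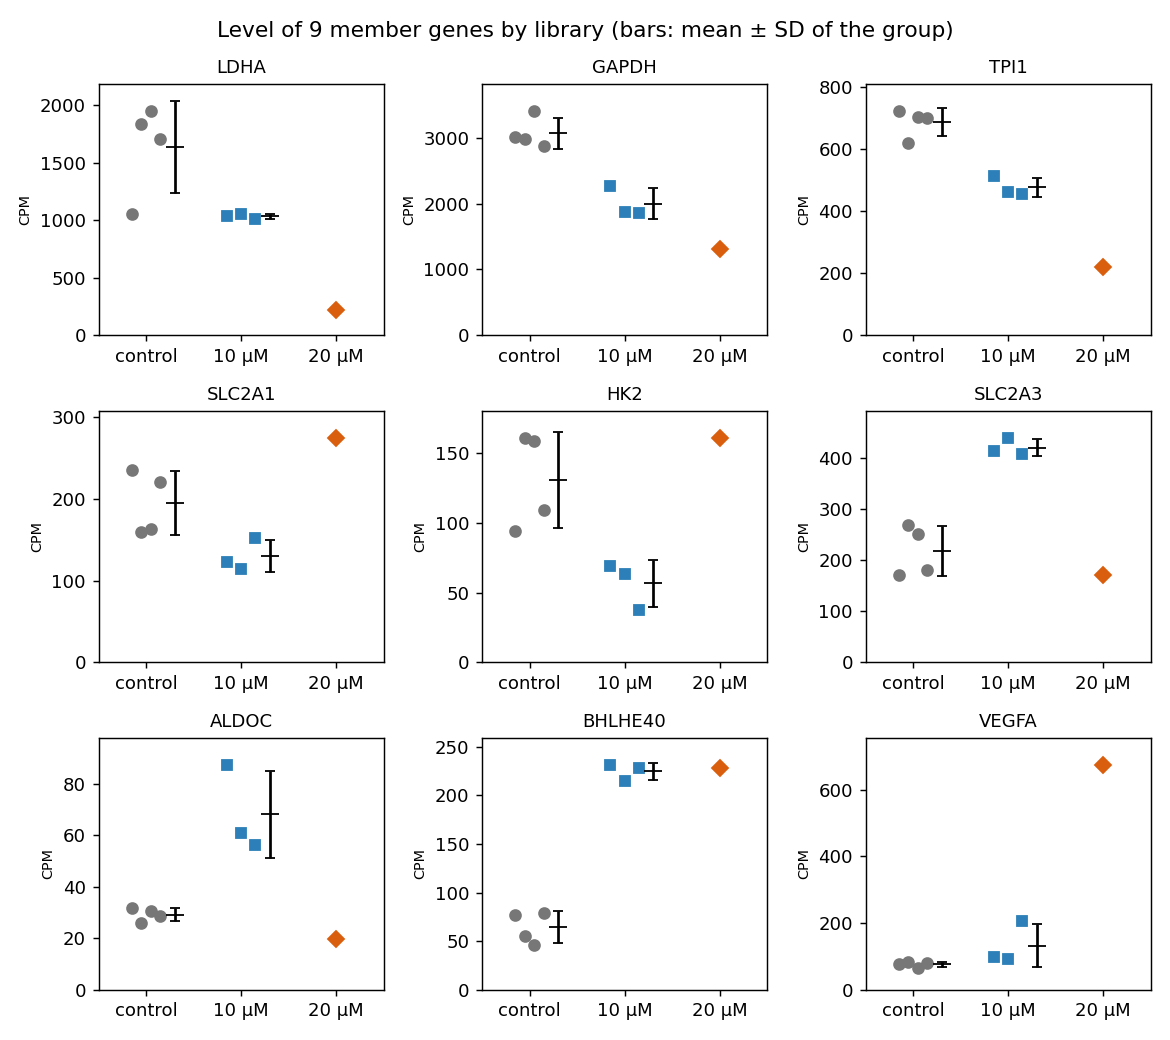
CPM (y axis, from 0) of 9 members in each library by dose (x axis), with the mean ± SD of the controls (n = 4) and of 10 µM (n = 3) as black bars; 20 µM is 1 library. LDHA, GAPDH and TPI1 are lowest at 20 µM, SLC2A1 and HK2 are lowest at 10 µM, SLC2A3 and ALDOC are highest at 10 µM, and VEGFA reaches 675 CPM at 20 µM.

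The lower part of the pathway, from GAPDH to lactate and with the kinase PDK1, held the members with the largest share of RNA. Its 10 genes summed to 0.961 to 1.13% of all counts in the controls, 0.721 to 0.821% at 10 µM and 0.4996% at 20 µM. Of the 10 genes 6 fell and 1 rose at 10 µM, where 9.79% and 9.34% of all genes did, with a median of -0.48, beside 0.05 over all genes tested. GAPDH, the NAD-dependent dehydrogenase of the pathway (chromosome 12, 6533927 to 6538374), had 3005, 2976, 3411 and 2872 CPM in the controls, 2269, 1875 and 1859 CPM at 10 µM and 1304 CPM at 20 µM. Its groups did not overlap, and it fell at 10 µM (-0.75, SE 0.13, edgeR adjusted p = 0.00642). At 20 µM against 10 µM GAPDH was just past the threshold (-0.62, SE 0.20, adjusted p = 0.0479), a call lost under 7 of 15 alternatives (0.0196 to 0.0779 over all of them), among them without control 2 or 4 and without 10 µM replicate 2 or 3. PGK1, which makes the first ATP of the pathway (chromosome X, 77910739 to 78129296), fell to 429.7, 429 and 376 CPM at 10 µM, against 532, 563, 623 and 554 CPM in the controls (-0.59, SE 0.12, adjusted p = 0.0120), and had 236 CPM at 20 µM (-0.81 against 10 µM, SE 0.19, adjusted p = 0.0147). PGAM1, the main phosphoglycerate mutase (chromosome 10, 97426160 to 97433441), fell likewise, by 0.53 at 10 µM (SE 0.12, adjusted p = 0.0158, and 0.0544 without 10 µM replicate 3, where the alternatives span 0.000416 to 0.0624) and by 0.98 at 20 µM against 10 µM (SE 0.19, adjusted p = 0.00562).

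PGAM4, an intronless copy of PGAM1 on chromosome X (77968874 to 77969638) inside the span of PGK1 and ATP7A, stood at 2.35, 2.42 and 1.46 CPM at 10 µM, against 3.602, 5.80, 5.16 and 4.26 CPM in the controls. It fell by 1.31 at 10 µM (SE 0.32, edgeR adjusted p = 0.0219), a call lost without control 2 or 3 or 10 µM replicate 3 or 4 (0.00121 to 0.0689 over the alternatives). The PGAM4 transcript of 765 bases matched PGAM1 at 752 of them (98.3%), and 46.51% of its windows of 50 bases occur unaltered in PGAM1, so the split of counts between them is uncertain.

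ENO1, the ubiquitous enolase (chromosome 1, 8861000 to 8879250, minus strand), had 3142, 2906, 3289 and 3102 CPM in the controls, 2725, 2437 and 2403 CPM at 10 µM and 2053 CPM at 20 µM. It fell by 0.43 at 10 µM (SE 0.10, edgeR adjusted p = 0.0221, lost without 10 µM replicate 3 or 4, with 0.00141 to 0.0831 over the alternatives). ENO2, the neuronal enolase (chromosome 12, 6913745 to 6923698), moved the other way, with 19.9, 7.58, 7.40 and 17.5 CPM in the controls, 34.1, 31.4 and 43.2 CPM at 10 µM and 60.1 CPM at 20 µM. Every treated library lay above every control, and within the controls the letter-named libraries 1 and 4 were above the digit-named 2 and 3. ENO2 rose at 10 µM (1.36, SE 0.33, adjusted p = 0.0214), a call lost without any 1 of the 3 libraries at 10 µM (9.62e-05 to 0.0829 over the alternatives). PKM, pyruvate kinase, overlapped between 10 µM and control and was higher at 20 µM (0.54 against 10 µM, SE 0.13, adjusted p = 0.0171, and 0.0585 without 10 µM replicate 3, where the alternatives span 0.00115 to 0.103), with 646 CPM there against 446, 411 and 475 CPM at 10 µM. Its muscle and tumour splice forms are not separated in gene counts.

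LDHA, which reduces pyruvate to lactate (chromosome 11, 18394388 to 18408425), had 1056, 1837, 1951 and 1706 CPM in controls 1 to 4, 1038, 1054 and 1012 CPM at 10 µM and 224 CPM at 20 µM. Control 1 lay next to the 10 µM libraries, far from the other 3 controls. LDHA fell at 10 µM (-0.80, SE 0.21, edgeR adjusted p = 0.0317), a call that rests on the libraries present: it was lost without control 2, 3 or 4 or any 1 of the libraries at 10 µM (adjusted p = 0.0614 to 0.0943) and stood at -0.97 without control 1 (adjusted p = 0.00204), with 1.94e-05 to 0.115 over all alternatives. At 20 µM LDHA had the largest drop of the members against 10 µM (-2.21, SE 0.37, adjusted p = 0.00313), past the threshold under all 15 alternatives run. LDHB, the heart-type subunit, had 1025, 1164, 1269 and 1100 CPM in the controls, 999.5, 954 and 811 CPM at 10 µM and 321 CPM at 20 µM. It did not pass at 10 µM (-0.44, adjusted p = 0.0579) and was lower at 20 µM than at 10 µM (-1.53, SE 0.23, adjusted p = 0.00212). PDK1, the kinase that shuts pyruvate out of the mitochondrial dehydrogenase, did not pass in either comparison, at 31.0 ± 4.73 CPM at 10 µM and 27.7 ± 3.67 CPM in the controls, with 37.7 CPM at 20 µM.

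In the pentose phosphate pathway 2 of 5 members fell at 10 µM and 0 rose, where 9.79% of all genes fell and 9.34% rose, with a median of -0.22, beside 0.05 over all genes. Both that fell belong to the non-oxidative branch. RPIA, which makes ribose 5-phosphate (chromosome 2, 88691644 to 88750935), fell to 35.95, 40.7 and 31.9 CPM at 10 µM, against 50.7, 62.0, 63.9 and 53.4 CPM in the controls (-0.80, SE 0.15, edgeR adjusted p = 0.00940), and had 21.9 CPM at 20 µM. TKT, transketolase, stood at 376, 308 and 320.4 CPM at 10 µM, against 419.8, 408, 415 and 374 CPM in the controls, so that 10 µM replicate 2 and control 4 overlapped. It fell by 0.40 (SE 0.11, adjusted p = 0.0381), a call lost without control 1, 2 or 3 or 10 µM replicate 3 or 4 (0.00673 to 0.132 over the alternatives). PGD, the NADPH-producing dehydrogenase of the oxidative branch, had 488, 433 and 389 CPM at 10 µM and 338, 357, 385 and 332 CPM in the controls. Its groups did not overlap in CPM, yet it did not pass (0.18, SE 0.13, adjusted p = 0.379), and it had 536 CPM at 20 µM. TALDO1, transaldolase, overlapped between 10 µM and control. Its 20 µM library, at 419 CPM, lay within the control range and above every library at 10 µM. RPE, the ribulose phosphate epimerase, overlapped at 10 µM and was lower at 20 µM (-0.91 against 10 µM, SE 0.19, adjusted p = 0.00841); 23.8% of its exon length is shared with the antisense gene KANSL1L.

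Of the 5 hypoxia-induced members 1 rose and 1 fell at 10 µM, where 9.34% and 9.79% of all genes did. Their median was 0.30, beside 0.05 over all genes tested. With 5 genes, these counts do not settle whether they moved as a group. BHLHE40 (DEC1, a transcriptional repressor induced by HIF and by many other stresses, chromosome 3, 4979116 to 4985323) had 76.5, 55.7, 46.0 and 79.4 CPM in the controls, 231, 215 and 228 CPM at 10 µM and 228 CPM at 20 µM. Every treated library was above every control, and the 20 µM library lay within the range at 10 µM. BHLHE40 rose at 10 µM (1.69, SE 0.16, edgeR adjusted p = 0.000636), the smallest p of all members, and stood at 0.02 at 20 µM against 10 µM (SE 0.24, adjusted p = 0.963). VEGFA, the angiogenic growth factor (chromosome 6, 43770184 to 43786487), had 77.0, 82.0, 66.0 and 78.6 CPM in the controls, 99.4, 91.8 and 206 CPM at 10 µM and 675 CPM at 20 µM. All libraries at 10 µM were above the controls, with replicate 4 apart from the other 2, and the test did not pass (0.66, SE 0.24, adjusted p = 0.0826). At 20 µM VEGFA was higher than at 10 µM (2.36, SE 0.33, adjusted p = 0.00156), at 8.89 times the control mean. EGLN3, the HIF prolyl hydroxylase that HIF itself induces (chromosome 14, 33924231 to 34462774, minus strand), ran against VEGFA. It fell to 6.26, 4.31 and 7.996 CPM at 10 µM, against 12.5, 8.49, 11.004 and 11.8 CPM in the controls (-0.96, SE 0.24, adjusted p = 0.0232, lost without control 3 or 4 or 10 µM replicate 3, with 0.00109 to 0.0746 over the alternatives), and had 3.11 CPM at 20 µM. ADM, the vasodilator peptide adrenomedullin, was near the floor, at 0.498, 0 and 0.399 CPM at 10 µM, where 3 counts in the library at 0 would be 0.0422 CPM, and at 1.49, 0.135, 0.354 and 0.457 CPM in the controls, with 2.67 CPM at 20 µM. ANKRD37, another HIF target, stood at 2.34 ± 0.631 CPM at 10 µM and 1.72 ± 0.805 CPM in the controls, with 4.73 CPM at 20 µM; 35.2% of its exon length is shared with the antisense gene UFSP2.

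Several families hold members that moved apart, which the counts within a family show directly. SLC2A3 held 42.1, 62.9, 60.6 and 45.1% of the SLC2A1 and SLC2A3 counts in controls 1 to 4, 77.0, 79.4 and 72.9% at 10 µM and 38.4% at 20 µM. ALDOC held 1.79 to 1.94% of the ALDOA and ALDOC counts in the controls, 5.31, 4.70 and 4.18% at 10 µM and 2.27% at 20 µM. ENO2 held 0.224 to 0.628% of the ENO1 and ENO2 counts in the controls, 1.24 to 1.77% at 10 µM and 2.85% at 20 µM. In these 3 families the libraries at 10 µM did not overlap with the controls. HK2 held 14.0 to 19.1% of the HK1 and HK2 counts in the controls, 10.2, 10.3 and 7.78% at 10 µM and 21.1% at 20 µM, so that it lay below the controls at the lower dose and above them at the higher. PFKFB4 held 31.7 to 37.6% of the PFKFB3 and PFKFB4 counts in the controls, 49.1 to 59.5% at 10 µM and 22.1% at 20 µM. LDHA held 50.8 to 61.2% of the LDHA and LDHB counts in the controls, 50.9 to 55.5% at 10 µM and 41.1% at 20 µM. Controls 1 and 4, with letter names like the 20 µM library, were the lower controls in the SLC2A3 share (42.1 and 45.1%) and the HK2 share (14.0 and 15.2%). The ratio was not given a test of its own, since it restates the levels above.

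**Figure D4:**
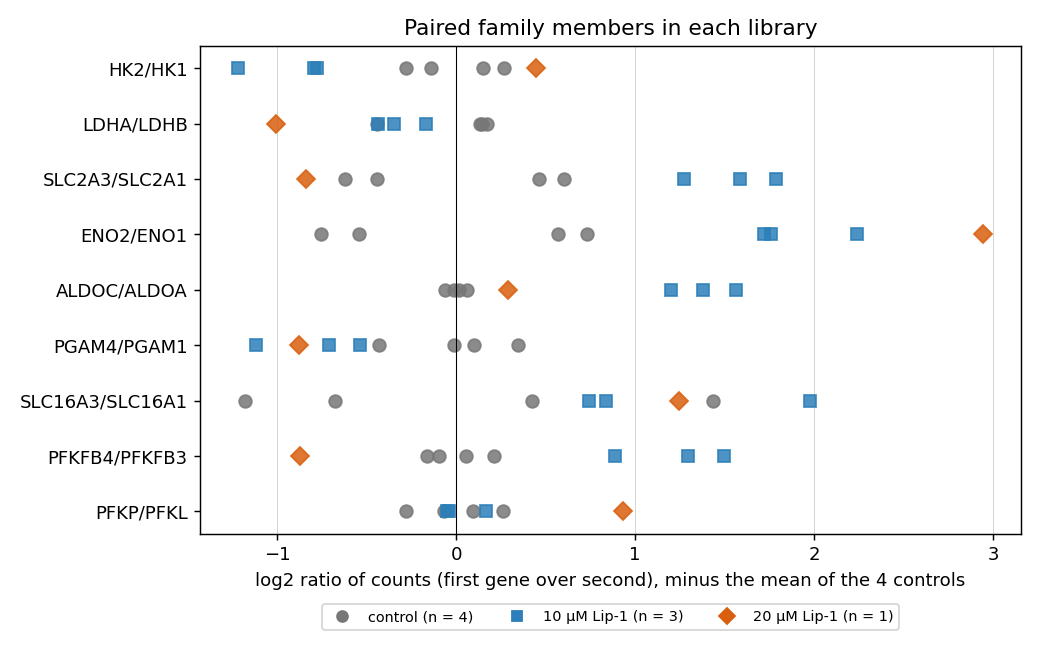
Log2 ratio of the counts of 2 genes of a family, less the mean of that ratio in the 4 controls (x axis), for 9 pairs (y axis); grey circles are controls, blue squares 10 µM and orange diamonds the 20 µM library. At 10 µM the ratios SLC2A3/SLC2A1, ENO2/ENO1, ALDOC/ALDOA and PFKFB4/PFKFB3 lie right of every control and HK2/HK1 and PGAM4/PGAM1 lie left of every control.

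Other genes of these pathways, from 3 lists fixed with earlier results of these data known, moved less uniformly. Of 42 other genes of glycolysis and pyruvate use 36 passed the filter, 5 rose and 3 fell at 10 µM in edgeR, with a median of -0.05. These 8 are 22.2% of the list, near the 19.1% of all genes. PFKFB2, the heart-type kinase that makes fructose 2,6-bisphosphate, rose to 132 ± 10.6 CPM at 10 µM (SD, n = 3), against 48.7 ± 7.39 CPM in the controls (n = 4), a log2 fold change of 1.31 (adjusted p = 0.000490), unlike PFKFB3. SLC2A6, a glucose transporter family member, rose to 3.64 ± 1.84 CPM, against 0.195 ± 0.0570 CPM in the controls (adjusted p = 0.00151). PKLR, the red cell pyruvate kinase, fell to 27.2 ± 9.35 CPM, against 58.1 ± 8.46 CPM in the controls (adjusted p = 0.00918), and PDHA1, the catalytic subunit of pyruvate dehydrogenase, to 163 ± 17.9 CPM, against 229 ± 15.8 CPM (adjusted p = 0.0132). At 20 µM against 10 µM 3 genes of this list were higher and 11 lower, where 11.7% and 14.6% of all genes were, led by PDP1, the phosphatase that activates pyruvate dehydrogenase (2.24, adjusted p = 0.00158), HKDC1, a hexokinase-like gene (4.43, adjusted p = 0.0114), DLAT, the E2 subunit of that dehydrogenase (-1.34, adjusted p = 0.00661), and GPD1L (-1.24, adjusted p = 0.00689).

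Of 13 other pentose phosphate genes 1 rose and 2 fell at 10 µM, with a median of -0.10. These 3 are 23.1% of the list, near the 19.1% of all genes. H6PD, the NADPH source of the endoplasmic reticulum, rose to 46.1 ± 13.4 CPM at 10 µM, against 15.5 ± 6.02 CPM in the controls (edgeR adjusted p = 0.00868). PRPS2 and PRPS1, which turn ribose 5-phosphate into the nucleotide precursor PRPP, fell by 0.48 and 0.48 (adjusted p = 0.0343 and 0.0357). At 20 µM against 10 µM 2 of the list were higher, among them PRPSAP1 (0.89, adjusted p = 0.0115), and 4 lower (11.7% and 14.6% of all genes), led by PRPS2 (-1.58, adjusted p = 0.00144) and PGM2 (-1.21, adjusted p = 0.00603).

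Of 44 other genes of the HIF pathway and hypoxia response 41 passed the filter. Of these, 7 rose and 5 fell at 10 µM, where 9.34% of all genes rose and 9.79% fell. These 12 are 29.3% of the 41, beside 19.1% of all genes in either direction. The list's median was 0.22, beside 0.05 over all genes tested. NDRG1, a stress-induced growth suppressor, rose to 34.6 ± 1.44 CPM at 10 µM, against 7.76 ± 1.61 CPM in the controls (2.03, edgeR adjusted p = 0.000171). SLC6A8, the creatine transporter (-0.44, adjusted p = 0.0137), and BNIP3, a mitophagy receptor (-0.60, adjusted p = 0.0161), fell. At 20 µM against 10 µM 10 of the list were higher, led by NDRG1 (3.04, adjusted p = 9.07e-05) and the collagen prolyl hydroxylase P4HA2 (1.40, adjusted p = 0.000577), and 3 lower (11.7% and 14.6% of all genes), led by FAM162A (-1.56, adjusted p = 0.002175) and PLOD1 (-0.54, adjusted p = 0.0333). Within the same response, VEGFA and NDRG1 thus stood high in the 20 µM library, at 675 and 285 CPM, while EGLN3, LDHA and PGK1 had their lowest level of all 8 libraries there.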

How the data were processed

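Total RNA from 8 K562 samples was extracted with Trizol, depleted of ribosomal RNA with biotinylated probes, fragmented and copied with random primers, per the labels' protocols. The authors deposited 1 table of whole-number counts, with a line for each gene symbol and a column for each library, per the file headers. The submitters' processing notes name bcl2fastq 2.0, HISAT2, StringTie, DESeq2 and limma on hg38, with no role or order; strand use in counting is not given in the sources used here. A total of 9 lines without a gene name and without values were left out. Low values are not spaced as single reads (2958 entries at 4 counts, 401 at 1), so a count may be an estimate, and floors of 3 counts cover counting error only.

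Members and lists were chosen with earlier results of these data known. Members were described in full where they passed in either comparison; from each other list the 2 genes per direction with the smallest p among those past the threshold were named, except that some genes of these lists are not reported here. In R 4.3.3, edgeR 4.0.16 (filterByExpr by dose group, TMM, glmQLFit and glmQLFTest, 3 dose levels, all 8 libraries) tested 14857 genes, with Benjamini-Hochberg adjustment at 0.05. The smallest group has 1 library, so a gene could pass the filter through the 20 µM library alone. The SE is the log2 fold change over the square root of F. CPM use the library total without the TMM factor, so they can differ from the fitted fold changes. The factors were 0.900 to 0.998 in the controls and 1.02 to 1.08 in the treated libraries. CPM thus place treated libraries higher against the controls than the fit does, which bears on each statement of overlap in CPM. Alternatives used DESeq2 1.42.0 and limma 3.58.1, other scalings and filters, covariates and left-out libraries. Replicates of a group differed by more than sampling noise in every pair. The code was tested on simulated data. Coordinates and exon lengths come from GENCODE 29 (GRCh38), which matched 19029 symbols and all 36 members by name, and promoters from RefSeq (GRCh38.p14), which matched 33.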

Additional observations from a re-analysis of the deposited data

Results flagged for a closer look

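Within the 4 controls, 2 of 36 members had a library far from the other 3, where chance gives about 1 in 20. PFKM, the muscle-type phosphofructokinase subunit, had 52.1 CPM in control 3 and 47.1 to 47.2 CPM in the other 3 controls. PFKFB3, the kinase that makes fructose 2,6-bisphosphate, had 36.9 CPM in control 2 and 31.0 to 31.8 CPM in the other 3.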

How the results depend on the processing

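Scaling by relative log expression or upper quartile, no filter or one of 1 CPM in 3 libraries, DESeq2 and limma-voom left the counts of members called within 1.5 times of 4 higher and 14 lower at 10 µM against control, and of 5 higher and 13 lower at 20 µM against 10 µM. With all 4 treated libraries as 1 group, 2 members were higher and 9 lower than control. With the naming pattern as a covariate, 8 members were higher at 20 µM than at 10 µM. In that fit 15 members were lower. Of all 14857 genes 1756 were higher and 2353 lower there, beside 1734 and 2169 without the covariate. At 10 µM against control the covariate gave 6 members higher and 19 lower. Of all genes 2368 were higher and 2297 lower there, beside 1387 and 1455 without it. Leaving out 1 library gave 2 to 4 higher and 7 to 16 lower at 10 µM against control, and 4 to 5 higher and 12 to 14 lower at 20 µM against 10 µM. Over all genes, 643 to 1435 were higher and 721 to 1586 lower at 10 µM against control when 1 library was left out. No member past the threshold changed direction under any alternative run. At 10 µM, BHLHE40, GAPDH, GPI, PFKFB3, PGK1, RPIA and TPI1 stayed past the threshold under all 18 alternatives, while ALDOC and HK2 lost it only with all treated libraries as 1 group (adjusted p = 0.145 and 0.224, the highest of ranges from 3.35e-07 and 4.53e-06). Deviations of same-numbered libraries at 10 µM and in the controls correlated at 0.0756, 0.211 and 0.237 across genes. Each library at 10 µM correlated best with its own number. The submitters' library names also share a stem between some same-numbered control and treated libraries, but no label states a pairing. The first correlation falls short of 0.1, so the numbers were not taken as pairs, and pairing remains possible. With the replicate number as a block, 6 members were higher and 19 lower at 10 µM against control, and 4 higher and 10 lower at 20 µM against 10 µM. The calls over all 14857 genes moved too, to 2406 higher and 2251 lower in the first comparison, beside 1387 and 1455 without the block, and to 1211 higher and 1630 lower in the second, beside 1734 and 2169. At 20 µM against 10 µM the block left PFKP (edgeR adjusted p = 0.0536), PFKM (0.0858), RPE (0.0628), PKM (0.103) and GAPDH (0.0779) short of the threshold, where PFKP, PFKM and RPE passed under the other 14 alternatives. The cause of these shifts was not tested. At 20 µM there is 1 library, and members near the floor (ADM, SLC16A3, TIGAR, ANKRD37) could be measured only coarsely.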
